A study of Homo sapiens with 9 samples.

Results

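Fibronectin (FN1) and 9 other secreted matrix glycoproteins were followed through the transcriptome of 786-0 cells: the fibrillins FBN1 and FBN2, the fibulins FBLN1 and EFEMP1, tenascin C (TNC), the TGFβ-induced protein TGFBI, SPARC, thrombospondin 1 (THBS1) and osteopontin (SPP1). The genes were chosen by name as a functional family, with earlier results of these data known. All 10 were found among the 58735 genes of the count table. 786-0 is a clear cell renal cell carcinoma line. RNA sequencing was done on 3 libraries of 786-0 WT cells (control), 3 of WT cells given 10 μM PT2385, an antagonist that keeps HIF2α from pairing with HIF1β, and 3 of a HIF2α knockout of the line (HIF2α KO), all kept for 48 h in normoxia (21% O2). All groups share the loss of VHL function that defines this line and keeps HIF2α stable in normoxia, and an inactivating HIF1A mutation, so that HIF2α is the main HIF-α subunit. How the KO cells were made, whether they are 1 clone and what vehicle the control received are not given in the sources used here, so an effect of HIF2α loss and any other difference of the KO line cannot be told apart. Nothing in the labels says that replicates were separate cultures, so the p-values measure the spread between these libraries, which may be technical.

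Fibronectin is secreted as a dimer and is pulled into fibrils on the cell surface by integrins, mainly α5β1. Fibrillins form the microfibrils of elastic fibres, and fibulins join the components of these fibres together. Tenascin C, thrombospondin 1, SPARC and osteopontin are matricellular proteins, which tune how cells adhere to the matrix rather than build it, and TGFBI is an adhesion protein that binds integrins and collagens. In VHL-defective renal carcinoma the assembly of a fibronectin matrix is known to be impaired, and VHL protein binds fibronectin.

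Total counts ranged from 11881000 to 14730081 per library. EPAS1, which encodes HIF2α, had 3226, 3210 and 2788 counts in the control libraries, 3075, 3317 and 3132 with PT2385 and 262, 360 and 307 in HIF2α KO, so the KO libraries were low in every replicate and the PT2385 libraries overlapped the control. All 8 renal carcinoma markers were above 3 counts, and their summed level was 6534 to 6961 CPM (reads scaled to the normalised library size) in control, 6081 to 6752 with PT2385 and 6121 to 6553 in HIF2α KO. VIM made up most of this sum (4116 to 4891 CPM), and single markers moved: 2 rose and 2 fell with PT2385, and 2 rose and 3 fell in HIF2α KO, where CA12 was 0.0967 and PAX2 0.405 of control and KRT8 and KRT18 were 1.46-fold and 1.81-fold higher. Of all genes tested, 3.08% rose and 4.62% fell with PT2385, and 14.7% rose and 15.4% fell in HIF2α KO. Of 7 fibroblast markers, COL1A2, COL3A1, DCN and PDGFRA had no read in any of the 9 libraries, and the list summed to between 5.21 and 13.2 CPM. The other 3 were low and passed the test in HIF2α KO, where COL1A1 had 24, 39 and 45 counts against 69, 77 and 55 in control, PDGFRB 2, 2 and 0 against 27, 31 and 28, and LUM 43, 60 and 31 against 15, 15 and 22. The part of these differences in the results was not tested. The 6 endothelial markers summed to between 3.75 and 8.99 CPM and the 6 leukocyte markers to between 0.0823 and 1.37 CPM. EGFL7 made up most of the endothelial sum and was 1.72-fold higher in HIF2α KO than in control (adjusted p = 0.0163, edgeR). In bulk RNA, a change in the number of cells that express a gene and a change in RNA per cell cannot be told apart.

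The 3 most abundant transcripts of the family were FN1, TGFBI and THBS1, and the sequence before their start sites is shown because FN1 and THBS1 were higher and TGFBI was lower in both PT2385 and HIF2α KO than in control. FN1 lies on the minus strand of chromosome 2 (GRCh38, 215360440 to 215436073), TGFBI on the plus strand of chromosome 5 (136028988 to 136063818) and THBS1 on the plus strand of chromosome 15 (39581079 to 39599466). The sequences are from RefSeq (GRCh38.p14), 5′ to 3′ on the strand of the gene, and cover chr2:215436074-215436318 for FN1, chr5:136028738-136028987 for TGFBI and chr15:39580829-39581078 for THBS1. Capitals mark the cAMP response element (TGACGTCA), the letters of a CCAAT box, the letters TATAA of a TATA box and the core of a hypoxia response element (ACGTG, or the same with G as its first letter), all searched on both strands. The capitals ATTGG in THBS1 are a CCAAT box on the other strand.
FN1: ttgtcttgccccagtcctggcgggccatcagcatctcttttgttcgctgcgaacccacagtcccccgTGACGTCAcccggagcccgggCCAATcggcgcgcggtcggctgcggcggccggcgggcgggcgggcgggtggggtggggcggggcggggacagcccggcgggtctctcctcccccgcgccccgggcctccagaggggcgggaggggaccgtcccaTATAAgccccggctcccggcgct
TGFBI: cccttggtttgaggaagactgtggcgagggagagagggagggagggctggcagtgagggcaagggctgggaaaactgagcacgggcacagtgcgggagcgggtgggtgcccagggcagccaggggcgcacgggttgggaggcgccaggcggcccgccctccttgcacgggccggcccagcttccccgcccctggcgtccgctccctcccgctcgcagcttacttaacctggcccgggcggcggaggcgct
THBS1: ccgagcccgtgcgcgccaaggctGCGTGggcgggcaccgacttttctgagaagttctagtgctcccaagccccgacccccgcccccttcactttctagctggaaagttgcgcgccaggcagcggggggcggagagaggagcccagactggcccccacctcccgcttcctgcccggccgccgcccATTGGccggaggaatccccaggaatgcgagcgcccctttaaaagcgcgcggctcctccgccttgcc
In FN1 the cAMP response element began 183 bases before the RefSeq start, CCAAT 162 bases and TATAA 28 bases before it. The FN1 sequence shown has 245 bases, since it stops at the GENCODE start, which lies 5 bases before the RefSeq start. THBS1 held GCGTG 227 bases and CCAAT 66 bases before its start. None of these letters was found in the TGFBI window.

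Promoter windows of the 250 bases before the start were present for 9 of the 10 genes, all except EFEMP1. The hypoxia response core occurred in 3 of them (FBN1, FBN2 and THBS1), against 43.2% of 35116 promoters. CCAAT occurred in FN1, FBN2 and THBS1, against 32% of promoters, and TATAA in FN1 and TNC, against 18.9%. TGACGTCA was present in FN1, and in 1.65% of promoters. These matches describe the sequence and are not evidence that a factor binds there.

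The question of the PT2385 libraries is how antagonism of HIF2α changes gene expression, and fibronectin was the most changed of the family in it. FN1 stood at 4584, 4678 and 3357 CPM in control libraries 1, 2 and 3, at 9102, 9449 and 6879 CPM with PT2385 and at 27601, 26028 and 22049 CPM in HIF2α KO. Every PT2385 library was above every control library and below every KO library. The means were 4207 ± 737, 8476 ± 1395 and 25226 ± 2862 CPM (SD, n = 3 each). FN1 rose 2.01-fold with PT2385 (log2 fold change 1.01, SE 0.131, adjusted p = 4.07e-04, edgeR) and 6.04-fold in HIF2α KO (log2 fold change 2.59, SE 0.125, adjusted p = 7.97e-08). It was also 2.97-fold higher in HIF2α KO than with PT2385 (log2 fold change 1.57, SE 0.120, adjusted p = 9.91e-06). The call for FN1 was kept in each comparison when any 1 library was left out, with log2 fold changes of 0.87 to 1.14, 2.45 to 2.68 and 1.44 to 1.66. No other gene overlaps an FN1 exon. On the opposite strand, DELEC1 overlaps exons of TNC, CLMAT3 those of SPARC, and FSIP1 and THBS1-AS1 those of THBS1. These had 25, 2, 113 and 9 reads over the 9 libraries. An opposite-strand noncoding gene that overlaps SPP1 exons was not in the count table.

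FN1 was the gene with the most reads in all 3 HIF2α KO libraries. It ranked 2, 2 and 5 among all genes with PT2385 and 9, 10 and 12 in control. Its share of all counted reads was 0.419% ± 0.0731 (SD, n = 3) in control, 0.855% ± 0.150 with PT2385 and 2.52% ± 0.302 in HIF2α KO. The other 9 genes together took 0.353% ± 0.00780, 0.400% ± 0.0217 and 0.366% ± 0.0812, so the rise in the share of the whole family, from 0.772% ± 0.0663 to 1.25% ± 0.131 and 2.88% ± 0.229, was almost all FN1.

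**Figure D1:**
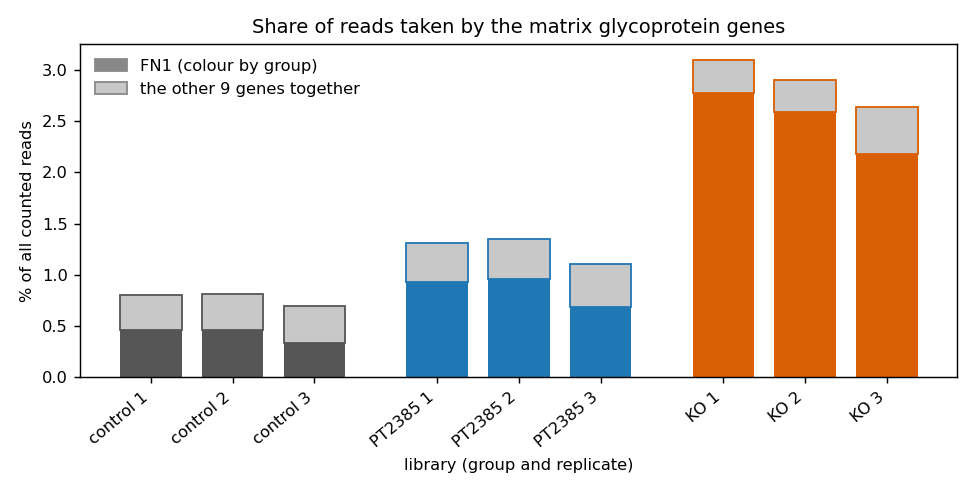
Share of all counted reads (%) in each of the 9 libraries, stacked as FN1 (coloured by group) and the other 9 genes together (grey). FN1 takes 0.334% to 0.462% of reads in control, 0.683% to 0.955% with PT2385 and 2.18% to 2.78% in KO, while the grey part stays between 0.313% and 0.459% in all libraries.

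Among the 10 genes, 4 rose with PT2385 (FN1, TNC, THBS1 and SPP1), 1 fell (TGFBI), SPARC, EFEMP1 and FBN1 did not pass the test, and FBN2 and FBLN1 were too low to test. Over all 15089 genes tested, 3.08% rose and 4.62% fell. In HIF2α KO, 4 of the 10 rose (FN1, EFEMP1, TNC and THBS1) and TGFBI fell, in a comparison in which 14.7% of 15192 genes rose and 15.4% fell. Between HIF2α KO and PT2385, FN1, EFEMP1 and TNC were higher in KO and TGFBI was lower, against 8.47% and 10.3% of 15402 genes. The median log2 fold change of the 8 tested genes was 0.38, 0.68 and 0.22 in these comparisons, beside medians over all tested genes of 0.00099, 0.0038 and -0.0035. The comparisons with control share the same 3 control libraries. For a single gene an exact two-sided permutation test of 3 against 3 libraries cannot go below p = 0.1, so the calls rest on the spread estimated across all genes.

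**Figure D2:**
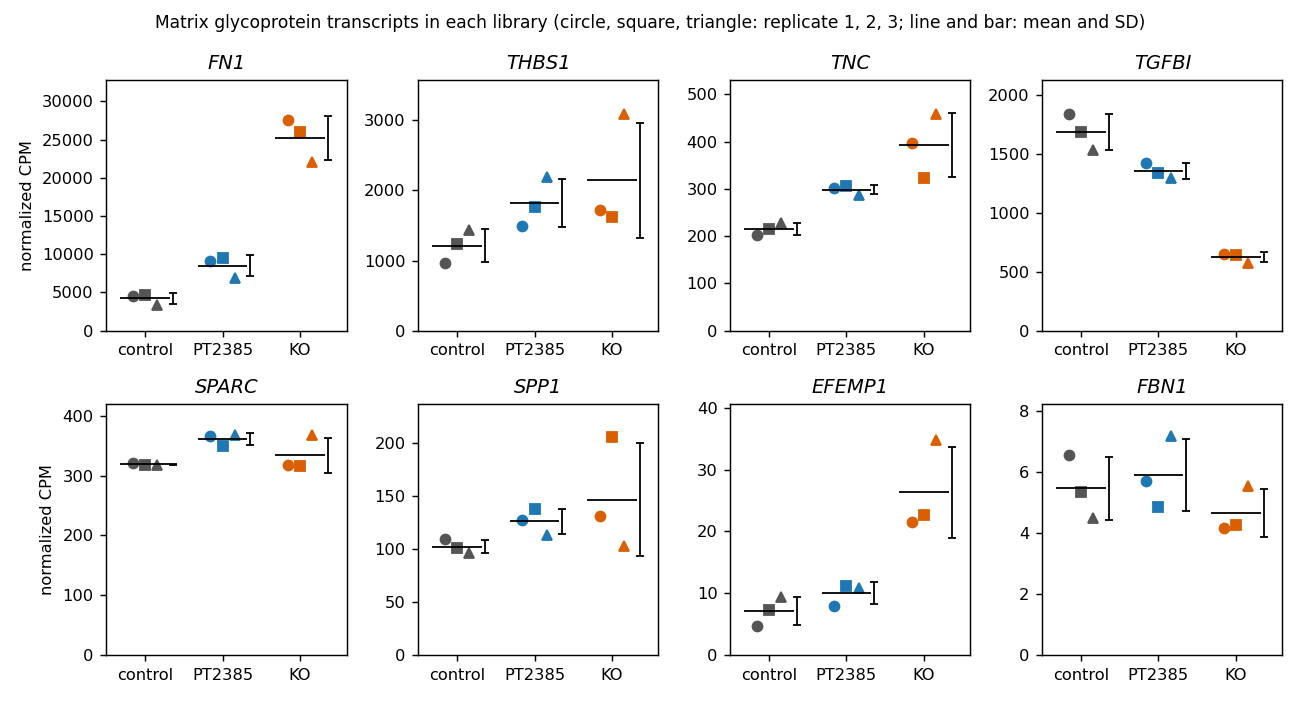
Normalised CPM of the 8 tested genes in each library, by group, with the mean (line) and SD (bar) of 3 libraries; circles, squares and triangles are replicates 1, 2 and 3, and each panel has its own scale from 0. FN1 rises and TGFBI falls across control, PT2385 and KO with no overlap between groups, whereas SPARC stays between 316 and 369 CPM.

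The matricellular genes TNC and THBS1 rose in both settings, by less than FN1. TNC (chromosome 9) was at 203, 216 and 227 CPM in control, at 301, 306 and 288 CPM with PT2385 and at 397, 324 and 459 CPM in HIF2α KO. The 3 groups did not overlap. TNC rose by a log2 fold change of 0.46 with PT2385 (SE 0.0621, adjusted p = 5.11e-04, edgeR) and of 0.88 in HIF2α KO (SE 0.108, adjusted p = 1.15e-04). The difference between HIF2α KO and PT2385 was 0.40 (SE 0.110, adjusted p = 0.0281), a call that was lost in 5 of the 6 fits that left out 1 library and was kept without KO replicate 2.

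THBS1, a large trimeric protein that can activate latent TGFβ, was at 964, 1231 and 1433 CPM in control, at 1499.5, 1768 and 2187 CPM with PT2385 and at 1715, 1628 and 3091 CPM in HIF2α KO. Every treated or KO library lay above the control libraries, and the third KO library stood well above its group. The log2 fold change was 0.58 with PT2385 (SE 0.138, adjusted p = 0.0237, edgeR) and 0.84 in HIF2α KO (SE 0.216, adjusted p = 0.0129). The PT2385 and KO groups overlapped, with a difference of 0.24 (SE 0.216, adjusted p = 0.508). Without KO replicate 3 the KO value was 0.48 (adjusted p = 0.00369). DESeq2 called THBS1 in neither comparison with control (adjusted p = 0.0996 and 0.0702), and the edgeR call was lost without control replicate 1, control replicate 2 or PT2385 replicate 2 for PT2385 and without control replicate 1 for HIF2α KO. In a single model of all 9 libraries the PT2385 call was also lost (adjusted p = 0.144).

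Osteopontin and SPARC each changed by less than FN1 in both settings. SPP1 was at 109, 101 and 96.4 CPM in control, at 127, 137 and 113 CPM with PT2385 and at 131, 205 and 102 CPM in HIF2α KO. The PT2385 libraries were all above control, whereas the third KO library lay within the control range. The log2 fold change was 0.30 with PT2385 (SE 0.0820, adjusted p = 0.0469, edgeR) and 0.53 in HIF2α KO (SE 0.192, adjusted p = 0.0585). The PT2385 call was lost in each fit without 1 library except that without PT2385 replicate 3, in a single model of all 9 libraries (adjusted p = 0.404) and with FN1 left out (0.0506). In HIF2α KO leaving out KO replicate 3 gave 0.73 (adjusted p = 5.76e-04), whereas leaving out KO replicate 2 gave 0.21 (adjusted p = 0.164).

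SPARC, a collagen-binding protein, was at 320.5, 318 and 318 CPM in control, at 366, 350.1 and 369 CPM with PT2385 and at 317, 316 and 368 CPM in HIF2α KO. The PT2385 libraries were above control without overlap, by a log2 fold change of 0.18 (SE 0.0527) that did not pass the test (adjusted p = 0.0681, edgeR). In HIF2α KO the difference was 0.08 (SE 0.0687, adjusted p = 0.448).

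TGFBI was the only one of the 8 tested genes called lower, in both settings and further in HIF2α KO. It was at 1837, 1689 and 1535 CPM in control, at 1424, 1339 and 1291 CPM with PT2385 and at 647, 645 and 575 CPM in HIF2α KO. The groups did not overlap, and the KO libraries were farthest from control. The log2 fold change was -0.32 with PT2385 (SE 0.0685, adjusted p = 0.0128, edgeR), -1.43 in HIF2α KO (SE 0.0767, adjusted p = 1.83e-07) and -1.12 for HIF2α KO against PT2385 (SE 0.0701, adjusted p = 2.60e-06). The PT2385 call was lost without control replicate 1, control replicate 2 or PT2385 replicate 2, with adjusted p of 0.0665 to 0.0725. The calls in HIF2α KO were kept without any 1 library.

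The elastic-fibre genes of the family were low, and of these EFEMP1 changed. EFEMP1, also called fibulin 3, had 56, 89 and 112 counts in control (4.70, 7.32 and 9.33 CPM), and was at 7.95, 11.2 and 10.8 CPM with PT2385 and at 21.5, 22.6 and 34.7 CPM in HIF2α KO. All KO libraries lay above all others, whereas control and PT2385 overlapped. EFEMP1 rose 3.73-fold in HIF2α KO (log2 fold change 1.90, SE 0.237, adjusted p = 1.32e-04, edgeR) and was 2.62-fold higher than with PT2385 (log2 fold change 1.39, SE 0.199, adjusted p = 7.07e-04). With PT2385 the difference from control was 0.49 (SE 0.217, adjusted p = 0.22).

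FBN1 was at 4.50 to 6.55 CPM in control, 4.84 to 7.18 CPM with PT2385 and 4.17 to 5.55 CPM in HIF2α KO, and the groups overlapped. Its log2 fold changes were 0.11 with PT2385 (SE 0.195, adjusted p = 0.804, edgeR) and -0.22 in HIF2α KO (SE 0.198, adjusted p = 0.457). FBN2 had no read in control, 3, 0 and 0 reads with PT2385 and 3, 1 and 4 in HIF2α KO. FBLN1 had 1, 0 and 0 reads in control, 3, 0 and 0 with PT2385 and 3, 5 and 4 in HIF2α KO. In both genes the HIF2α KO counts lay above the control counts by a few reads (exact two-sided permutation p = 0.1, the smallest possible), too low for the edgeR test or a fold change. The share of all genes separated in this way was not counted. The KO libraries also held more reads, 12893484 to 14730081 against 11881000 to 12296841 in control. The permutation used log2 CPM, which is scaled to library size. Because the counts are so few, this gap was not read as a change.

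**Figure D3:**
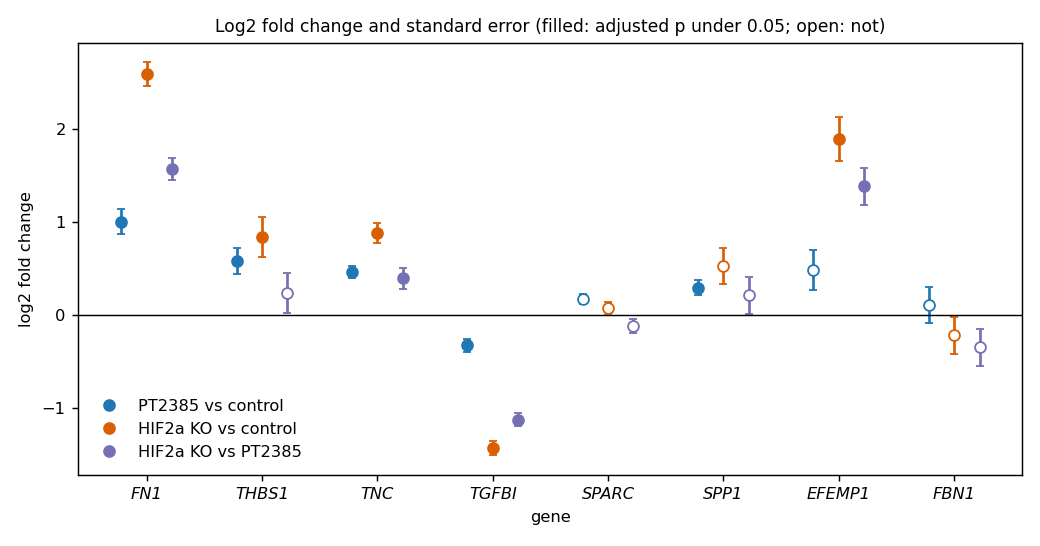
Log2 fold change (vertical axis) with its standard error for the 8 tested genes in PT2385 against control, HIF2α KO against control and HIF2α KO against PT2385; filled points passed an adjusted p of 0.05 in edgeR. FN1 shows the highest values (1.01, 2.59 and 1.57) and TGFBI is the gene with all 3 values called below 0 (-0.32, -1.43 and -1.12).

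Levels of different genes were compared per kilobase of the MANE Select transcript. In control, TGFBI stood first with 622 ± 55.6 CPM per kb (SD, n = 3), followed by FN1 with 501 ± 87.8, THBS1 with 155 ± 30.2, SPARC with 92.5 ± 0.349, SPP1 with 65.4 ± 4.17 and TNC with 25.3 ± 1.44. The lowest TGFBI library (566 CPM per kb) was barely above the highest FN1 library (558 CPM per kb), so the ranges of these neighbours nearly met. EFEMP1 (2.63 ± 0.857) and FBN1 (0.471 ± 0.0887) were far lower.

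With PT2385, FN1 (1010 ± 166 CPM per kb) came before TGFBI (498 ± 24.8) and THBS1 (233 ± 44.5). In HIF2α KO, FN1 reached 3007 ± 341 CPM per kb, and THBS1 (275 ± 105) and TGFBI (230 ± 15.1) no longer differed beyond their spread. SPARC (96.7 ± 8.51) and SPP1 (93.7 ± 34.0) were likewise level in HIF2α KO, followed by TNC (46.3 ± 7.98) and EFEMP1 (9.71 ± 2.71).

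Other genes of the matrix pathway were read from 5 lists. The elastic-fibre list of 14 further genes had 5 that were expressed enough to test, and genes named as latent TGFβ-binding proteins (LTBP) made up all its calls. LTBP1 had 84, 87 and 66 counts in control, 21, 26 and 16 with PT2385 and 5, 1 and 1 in HIF2α KO, and fell in both (log2 fold change -2.06, SE 0.230, adjusted p = 1.14e-04 with PT2385; adjusted p = 2.79e-06 in KO, edgeR). LTBP2 went the other way, from 30, 52 and 42 counts to 101, 80 and 93 with PT2385 and 251, 278 and 169 in HIF2α KO. Its log2 fold changes were 0.99 (SE 0.210, adjusted p = 0.0131) and 2.29 (SE 0.241, adjusted p = 3.72e-05), and the former was lost without control replicate 1 (adjusted p = 0.0611). HIF2α KO differed from PT2385 for LTBP1 (adjusted p = 0.00208) and LTBP2 (adjusted p = 0.00155).

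The median log2 fold change of the 5 tested elastic-fibre genes was 0.0045 with PT2385 and 0.021 in HIF2α KO. Of 19 relatives of the matricellular genes, 3 were testable, with medians of 0.013 and 0.18. None was called with PT2385 by edgeR or DESeq2 (1 had an unadjusted p under 0.05, and 1 was called higher with the replicate number as a block), whereas SPOCK1, a proteoglycan related to SPARC, rose in HIF2α KO by 0.96 (SE 0.0672, adjusted p = 1.55e-06).

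Receptors changed in both directions: of 17 listed and 13 tested, 3 rose and 2 fell with PT2385, and 4 rose and 4 fell in HIF2α KO (medians of -0.020 and -0.014). Over all genes tested, 3.08% rose and 4.62% fell with PT2385, and 14.7% rose and 15.4% fell in HIF2α KO. ITGB8, the integrin chain of αvβ8, which activates latent TGFβ, was at 340, 425 and 356 CPM in control, at 90.9, 95.9 and 79.6 CPM with PT2385 and at 90.8, 100.6 and 80.5 CPM in HIF2α KO. PT2385 and KO libraries were interleaved and lay far below control, with log2 fold changes of -2.08 (SE 0.0964, adjusted p = 3.89e-08, edgeR) and -2.03 (SE 0.10, adjusted p = 9.83e-08). The difference between HIF2α KO and PT2385 was 0.03 (SE 0.0989, adjusted p = 0.893). ITGB3 and ITGB6, which pair with αv to bind fibronectin and other matrix ligands, rose by 0.95 (SE 0.139) and 0.90 (SE 0.133) with PT2385 and by 0.68 (SE 0.133) and 1.40 (SE 0.135) in HIF2α KO. ITGB3 and ITGB6 each share exon sequence with another gene on the same strand (2266 and 966 bases), so their reads are uncertain. SDC2, a syndecan, rose by 0.43 with PT2385 (SE 0.0798, adjusted p = 0.00595, edgeR) and by 0.78 in HIF2α KO (SE 0.122, adjusted p = 6.12e-04). ITGB5 fell by 0.45 with PT2385 (SE 0.0751, adjusted p = 0.00257) and by 0.27 in HIF2α KO (SE 0.0882, adjusted p = 0.0404).

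The α5 chain of the main fibronectin receptor, ITGA5, was 0.39 lower on the log2 scale in HIF2α KO (SE 0.0608, adjusted p = 6.48e-04, edgeR) and its partner ITGB1 differed by -0.03 (adjusted p = 0.741). Between HIF2α KO and PT2385, 1 receptor was higher in KO and 2 were lower: ITGB6 by 0.48 (SE 0.121, adjusted p = 0.0172), SDC1 by -0.48 (SE 0.0926, adjusted p = 0.00452) and ITGA5 by -0.29 (SE 0.0679, adjusted p = 0.0133). Of all genes tested in this comparison, 8.47% were higher and 10.3% lower. The calls of ITGB6 and ITGA5 were lost without KO replicate 2 or PT2385 replicate 2.

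Of 25 other matrix glycoproteins, 13 were tested with PT2385, with 3 higher and 1 lower, and 15 were tested in HIF2α KO, with 7 higher and 3 lower (medians of -0.14 and 0.35). The shares over all genes were 3.08% higher and 4.62% lower with PT2385, and 14.7% and 15.4% in HIF2α KO. PXDN, peroxidasin, which cross-links collagen IV, was at 15.7, 12.3 and 13.2 CPM in control, at 9.72, 9.15 and 10.6 CPM with PT2385 and at 61.3, 66.3 and 64.4 CPM in HIF2α KO. It was lower with PT2385 (log2 fold change -0.49, SE 0.129, adjusted p = 0.0399, edgeR) and higher in HIF2α KO (2.23, SE 0.0978, adjusted p = 4.04e-08), and the direct difference of the KO from PT2385 was 2.70 (SE 0.0922, adjusted p = 6.02e-08). The PT2385 call was lost with DESeq2 (adjusted p = 0.0567) and under library-size scaling (adjusted p = 0.0504, edgeR). It was also lost without 5 of the 6 libraries in turn, kept only without PT2385 replicate 3.

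MFGE8, an integrin ligand also known as lactadherin, moved the opposite way, up by 0.35 with PT2385 (SE 0.0900, adjusted p = 0.0358) and down by 0.54 in HIF2α KO (SE 0.129, adjusted p = 0.00822), with a difference of -0.91 between KO and PT2385 (SE 0.122, adjusted p = 4.72e-04). Its PT2385 call was lost without control replicate 2 or 3 or PT2385 replicate 1 or 2, and in a single model of all 9 libraries (adjusted p = 0.0916). ABI3BP had 3, 3 and 4 counts in control, 10, 6 and 10 with PT2385 and 59, 67 and 69 in HIF2α KO, and FREM2 had 29, 15 and 15, then 11, 15 and 25, then 3, 3 and 3. Both passed the test in HIF2α KO (adjusted p = 1.59e-06 and 7.94e-04, edgeR). HMCN1 was also higher in HIF2α KO, with 24, 29 and 19 counts against 7, 5 and 8 (adjusted p = 0.00429). TINAGL1 and CRIM1 rose with PT2385 by 0.31 (SE 0.0681) and 0.30 (SE 0.0751). The PT2385 call of TINAGL1 was lost without control replicate 1 or 2. That of CRIM1 was lost without control replicate 1 or 2 or PT2385 replicate 2, and in a single model of all 9 libraries (adjusted p = 0.136). Both were also higher in HIF2α KO, by 0.85 (SE 0.0741, adjusted p = 8.88e-06, edgeR) and 0.45 (SE 0.112, adjusted p = 0.0104).

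Of 8 enzymes that modify or process matrix glycoproteins, all tested, 5 fell and 1 rose in HIF2α KO, where 15.4% of all genes fell and 14.7% rose. With PT2385 1 fell, where 4.62% of all genes fell (medians of -0.37 in HIF2α KO and -0.11 with PT2385). With the 1.5-fold test 1 fell and 1 rose in HIF2α KO. FAM20C, the kinase that phosphorylates secreted proteins including osteopontin, had 14, 12 and 11 counts in control, 8, 7 and 11 with PT2385 and 284, 497 and 235 in HIF2α KO, and rose by 4.56 (SE 0.335, adjusted p = 2.34e-06, edgeR). It was the only gene of its list called higher in HIF2α KO. POGLUT2 and POGLUT3, glucosyltransferases of EGF repeats, fell by 0.98 (SE 0.147, adjusted p = 4.90e-04) and by 0.57 (SE 0.107, adjusted p = 0.00209), and the protease FURIN fell by 0.63 (SE 0.0712, adjusted p = 6.58e-05). TGM2, the transglutaminase that cross-links fibronectin, was at 518, 625 and 601 CPM in control, at 262, 265 and 324 CPM with PT2385 and at 448, 381 and 525 CPM in HIF2α KO. It fell by 1.04 with PT2385 (SE 0.0887, adjusted p = 1.07e-05). In HIF2α KO it overlapped control (log2 fold change -0.35, SE 0.108, adjusted p = 0.0291), a call lost without control replicate 2 or 3 or KO replicate 1 or 2, and it was higher there than with PT2385 by 0.67 (SE 0.117, adjusted p = 0.00242). TGM2 overlaps RPRD1B on the opposite strand.

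**Figure D4:**
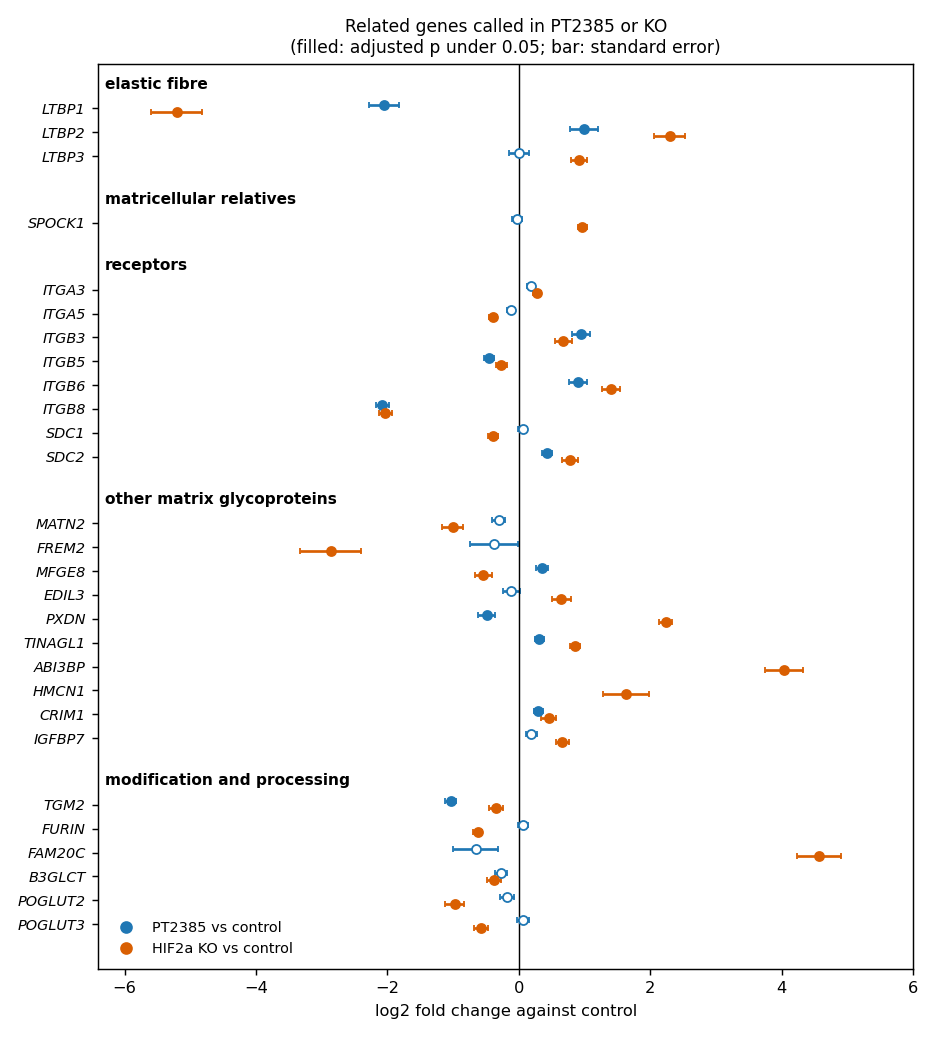
Log2 fold change against control with its standard error for the related genes called in at least 1 of the comparisons with control, grouped by list; filled points passed an adjusted p of 0.05 in edgeR and genes without a blue point were not tested with PT2385. ITGB8 sits at -2.08 and -2.03 in PT2385 and KO, PXDN at -0.49 and 2.23, and FAM20C reaches 4.56 in KO alone.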

How the data were processed

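The authors deposited raw counts of reads per gene, not normalised; per the study's methods, quality was read with FastQC and low-quality reads cut with cutadapt before STAR placed them on GRCh38 and featureCounts assigned them to genes. Annotation release and strandedness are not given in the sources used here, so reads of overlapping genes may be mixed; an exact match of identifiers to GENCODE v44 named 58207 of 58735 genes. The 10 genes, the lists and the tests were chosen with earlier results of these data known. Groups came from the labels. Total counts ran from 11881000 to 14730081 per library. The SDs and SEs hold both counting error and the spread between libraries.

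For each pair of groups a separate edgeR model was fitted (edgeR 4.0.16, R 4.3.3, TMM scaling, filterByExpr with a minimum of 10 counts, quasi-likelihood F test, Benjamini-Hochberg adjustment over all genes tested, threshold 0.05); the same steps were tested on simulated data. The SE is the absolute log2 fold change divided by the square root of the F statistic of the same test. CPM is scaled by TMM. Named genes were the 10 members, EPAS1, up to 4 genes of each list per comparison with the largest change among those called, and the 5 genes most like FN1. ITGB1 and the values of ITGA5, ITGB5, MFGE8, TGM2, TINAGL1 and CRIM1 in KO were added after the values were seen. So were those of SDC2 with PT2385 and of ITGB8 in KO against PT2385. The added values of ITGB5, SDC2, TINAGL1 and CRIM1 were not read under the alternatives below. Related genes outside this rule, and LTBP3, are plotted without their values in the text. Alternatives were DESeq2 1.42.0 (which the authors used), RLE and library-size scaling, no filter or 10 counts in every library, all 9 libraries in a single model, the replicate number as a block, FN1 left out, a 1.5-fold minimum change in the test, and each library omitted in turn; for the related genes these were added after seeing the data.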

Additional observations from a re-analysis of the deposited data

How the results depend on the processing

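Direction was kept in all 63 of 63 values of the 8 tested genes per comparison under the 8 alternatives that kept every library, the 1.5-fold test aside, and the call in 55 (PT2385), 59 (HIF2α KO) and 62 (KO against PT2385). With the 1.5-fold test, genes called fell to 172, 882 and 528, and members called with PT2385 to 0 (edgeR; 1 at an unadjusted p under 0.05). Members called with PT2385 numbered 3 in a single model of all 9 libraries and 3 with FN1 left out, where FN1 itself was absent. SPP1 in HIF2α KO passed in the single model (adjusted p = 0.0457), with no filter (1.48e-10) and with the replicate block (0.0208), SPARC with PT2385 under library-size scaling (0.0386) and the block (0.0109), EFEMP1 with PT2385 with no filter (0.0349) and the block (0.0276), and THBS1 in KO against PT2385 with no filter (0.00539). With no filter the SE of SPP1 in HIF2α KO was 0.0761, against 0.192 in the main fit, at nearly the same log2 fold change (0.525 and 0.530). The p-values of the fit with no filter are therefore to be read with caution. Without 1 library, genes called ran from 574 to 1451, 3344 to 5094 and 1836 to 3190, and members called from 2 to 5, 4 to 6 and 3 to 4. The log2 fold change then ran through 0 for FBN1 with PT2385 (-0.051 to 0.258) and, for KO against PT2385, for SPP1 (-0.11 to 0.41), THBS1 (-0.13 to 0.41) and ITGB8 (-0.051 to 0.103). The cause was not tested. Of 636 values of called related genes, 609 kept their call, 27 missed the threshold and 0 changed direction.

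With the replicate number as a block, genes called were 2305, 5501 and 3783, and members called 7, 6 and 4. The number did not count as pairing: over 14372 genes, deviations of 6 of 9 same-numbered pairs correlated over 0.1 (-0.00023 to 0.267), and 14 of 18 library comparisons were highest with their own number. Over the 5533 genes with a mean of at least 500 counts, 9 of 9 pairs were over 0.1 (0.128 to 0.573) and 16 of 18 were highest with their own number, a hint of pairing from the data and not from the labels. Counting error limits the genes near 3 counts (FBN2, FBLN1), and the 3 libraries per group limit the rest.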

Other observations

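In each group replicate 3 was the lowest library for FN1 (3357, 6879 and 22049 CPM in control, PT2385 and HIF2α KO) and the highest for THBS1 (1433, 2187 and 3091 CPM). EFEMP1 was highest in replicate 3 in control and HIF2α KO (9.33 and 34.7 CPM) but not with PT2385, where replicate 2 (11.2 CPM) stood above replicate 3 (10.8 CPM). What the replicate number stands for is not given in the labels.

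Among 10101 genes with a mean of at least 100 counts, the 5 whose log2 CPM followed that of FN1 most closely over the 9 libraries were BST2 (Pearson r = 0.996), TENM4 (0.989), ARAP1 (0.988), CELSR2 (0.986) and MCC (0.985). The points share their libraries and groups, so these values are a description without a test. BST2, a membrane protein that tethers virus particles to the cell surface, averaged 95.8 CPM in control, 113 CPM with PT2385 and 158 CPM in HIF2α KO. TENM4, a teneurin of the cell surface, averaged 45.5, 60.0 and 95.9 CPM. CELSR2, an adhesion receptor of the cadherin family, averaged 57.0, 71.4 and 102 CPM. The 10 glycoprotein genes were left out of this ranking, so it does not show whether any of them followed FN1.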
